A study of Danio rerio with 10 samples.

Results

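The genes described here are the enzymes and carriers of fatty acid beta-oxidation, measured by RNA-seq in whole zebrafish larvae with and without aldh2.1. They were chosen by name from a fixed list of 35 zebrafish symbols that leaves out the aldh genes, and 34 of the 35 symbols were matched to a gene of the deposited tables. Because acadsb matched 2 Ensembl genes, the set holds 35 genes of 32520 in all, of which 26 act in mitochondria, 5 in peroxisomes, 3 in both organelles and 1 in the cytosol. acad10 matched no gene and was not analysed here. The symbols cpt1aa, hadhab and acsl1a were matched to genes named without the paralog suffix.

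Larvae of both genotypes were compared, namely aldh2.1-/- (labelled as aldh2.1 knockout) and aldh2.1+/+ (labelled as wild type), at 120 hours post fertilization (hpf), raised without further treatment. Each genotype was represented by 5 libraries, numbered 1, 2, 3, 5 and 6, and each library came from 1 clutch of 50 pooled larvae. The mutant line carries a frame-shift deletion introduced by CRISPR/Cas9 with 1 guide RNA against exon 3 of aldh2.1 and was bred from 1 selected mutation, and both genotypes belong to a Tg(fli1:EGFP) reporter background, which labels the vasculature. Aldh2.1 is a mitochondrial aldehyde dehydrogenase that removes acetaldehyde, and the study asked how its loss alters vessels and energy metabolism. Since whole larvae were sequenced, fewer cells of a type and less RNA per cell cannot be told apart.

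Beta-oxidation shortens fatty acids to acetyl-CoA by repeating a dehydrogenation, a hydration, a second dehydrogenation and a thiolytic cleavage. Long chains are first activated to acyl-CoA and carried into mitochondria as carnitine esters, while electron transfer flavoprotein passes the electrons of the first step to the respiratory chain. Peroxisomes run a parallel pathway for very long and branched chains, and their first step uses an oxidase instead of a dehydrogenase. In larvae of this age the yolk lipids are nearly used up, and muscle, heart, liver and intestine are the tissues best known for oxidizing fatty acids.

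The libraries held between 19792930 and 20703518 estimated counts. Levels are given below as counts scaled to library size (CPM) and corrected by the trimmed mean of M values (TMM) for one gene between libraries, and as TPM, which also account for transcript length, between genes. The gene annotated as ALDH2, taken here as the targeted gene, was present at 2.75 to 7.35 CPM in aldh2.1-/- libraries. It was at 10.2 to 12.5 CPM in aldh2.1+/+ libraries, and these ranges did not overlap. Over all 21532 genes tested with edgeR's quasi-likelihood test, 2 genes, or 0.00929%, passed an adjusted p of 0.05 (Benjamini-Hochberg). Among them was the paralog aldh2.2 with a log2 fold change of -2.95. ALDH2 had a log2 fold change of -1.27 with an adjusted edgeR p of 0.134. How reads were divided between ALDH2 and aldh2.2 was not tested. An unadjusted p under 0.05 was reached by 1086 genes, or 5.04%.

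All 35 members were expressed, and all passed the filter on low counts. Their mean TPM over the 10 libraries spanned a 35.1-fold range, with a median of 10.8, and 20 members reached at least 10 TPM. The highest level was that of etfb, the beta subunit of electron transfer flavoprotein, at 77.3 TPM, followed by acadm, the medium-chain acyl-CoA dehydrogenase, at 47.9 TPM and etfa, the alpha subunit, at 46.6 TPM. These 3 genes held 26.8% of the summed TPM of the set. At the lower end stood ehhadh, the peroxisomal bifunctional enzyme, at 2.201 TPM and acad11, an acyl-CoA dehydrogenase found in both organelles, at 2.69 TPM. Of the purely peroxisomal genes, hsd17b4 had the highest level with 18.5 TPM, while acaa1, decr2 and acox3 were present at 7.62, 4.71 and 3.59 TPM.

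**Figure D1:**
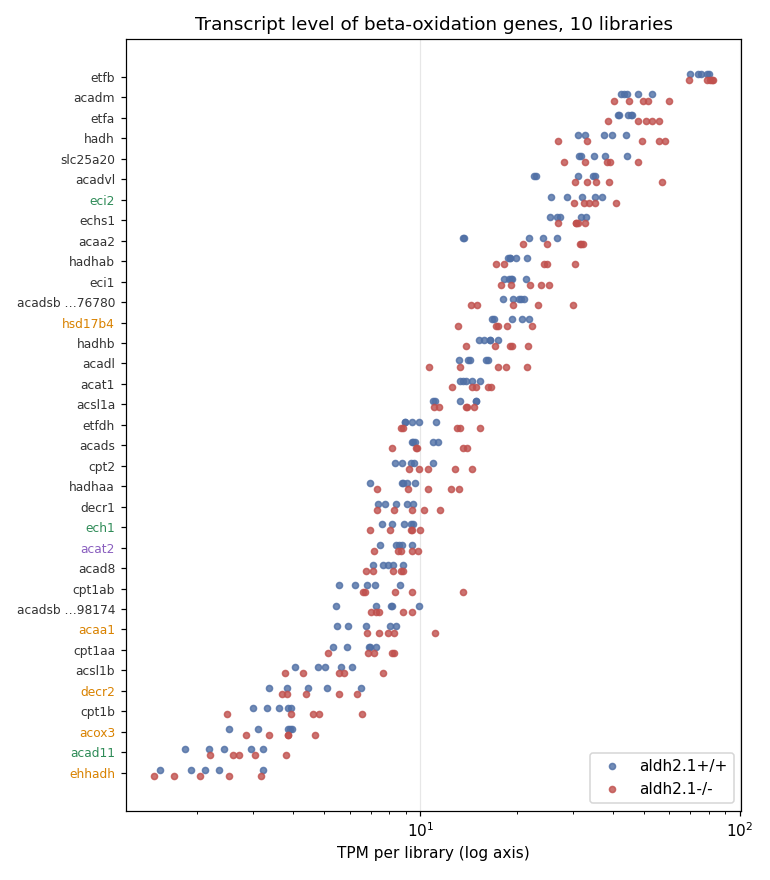
TPM (log axis) of each beta-oxidation gene in the 10 libraries, 1 point per library (blue aldh2.1+/+, red aldh2.1-/-), ordered by mean level. Gene names are coloured by compartment (black mitochondrial, orange peroxisomal, green both, purple cytosolic). The mean levels run from 2.201 TPM for ehhadh to 77.3 TPM for etfb.

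Between the genotypes, no member passed the adjusted threshold, where the smallest adjusted p was 0.921 (edgeR). An unadjusted p under 0.05 was reached by 2 of the 35 members, cpt2 and acadvl, both with higher means in aldh2.1-/- larvae. This was 5.71% of the members beside 5.04% of all genes, so the share of members called was near the background. The fitted log2 fold change was above 0 for 28 members, or 80%, and below 0 for 7, whereas it was above 0 for 52.1% of all genes (64.1% of all genes and 30 members with limma on log2(TPM + 1)). The median log2 fold change was 0.079 for the members and 0.0074 for all genes. Single members lay between -0.17 (hsd17b4) and 0.43 (acaa2). None of the 35 members separated the genotypes without overlap, which was the case for 0.725% of all genes.

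The 26 mitochondrial genes had a median log2 fold change of 0.088 with 22 of them above 0, and the 5 peroxisomal genes had a median of 0.051 with 3 above 0. The peroxisomal median was below 0 without aldh2.1+/+ replicate 3 (-0.014) and without aldh2.1-/- replicate 1 (-0.0059). By role, all 8 hydratases, hydroxyacyl-CoA dehydrogenases and thiolases and all 3 electron transfer genes had values above 0, with medians of 0.11 each. The corresponding counts were 5 of 7 for activation and carnitine shuttle, 6 of 8 for acyl-CoA dehydrogenases and 3 of 4 for the auxiliary enzymes of unsaturated fatty acids. Many members were high or low in the same clutches, as given further on, so these counts are a description and carry no test.

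**Figure D2:**
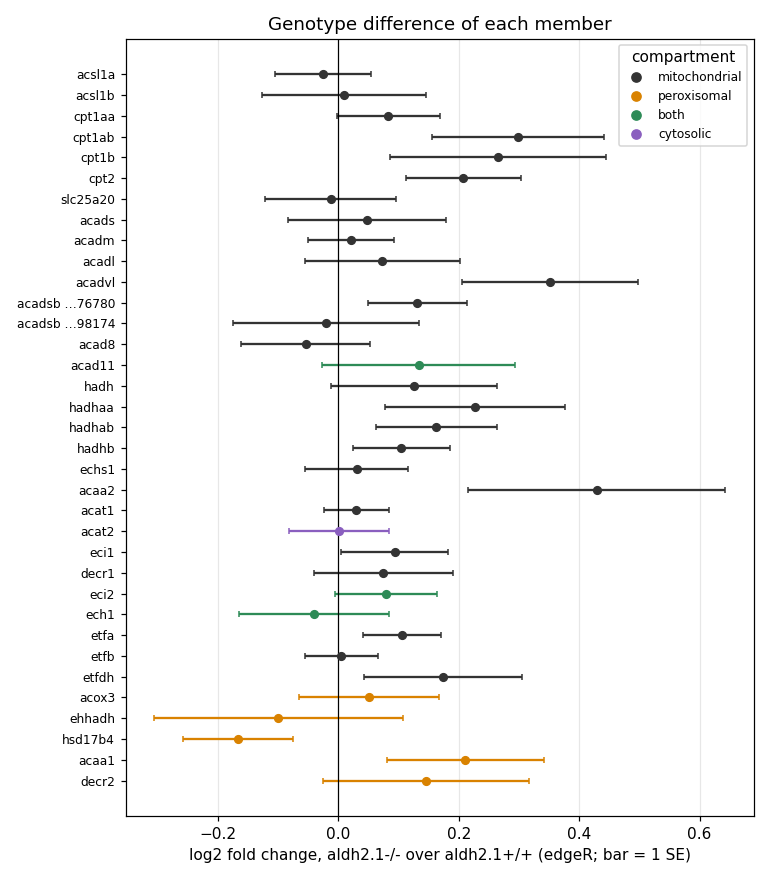
Fitted log2 fold change (aldh2.1-/- minus aldh2.1+/+) of each member with 1 standard error as the bar, grouped by role and coloured by compartment, from edgeR with 5 libraries per genotype. Most points lie slightly above 0, between -0.17 for hsd17b4 and 0.43 for acaa2, and no member passed an adjusted p of 0.05.

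The first group of members activates long-chain fatty acids and moves them into mitochondria. Carnitine palmitoyltransferase 2, encoded by cpt2, rebuilds acyl-CoA on the matrix side of the inner membrane. In aldh2.1-/- replicates 1, 2, 3, 5 and 6 its level was 22.6, 19.3, 20.9, 17.7 and 18.4 CPM, and in aldh2.1+/+ replicates with the same numbers it was 18.0, 15.1, 19.5, 16.9 and 16.2 CPM. The highest library was a mutant and the lowest a wild type, yet the ranges overlapped. The means were 19.8 ± 1.99 and 17.1 ± 1.69 CPM (SD, n = 5 each). The log2 fold change was 0.21 ± 0.10 (SE), with an unadjusted p of 0.0491 and an adjusted p of 0.921 in edgeR. The exact permutation test (two-sided) gave p = 0.0635. Across the alternative analyses the unadjusted edgeR, limma or DESeq2 p ran from 0.0218 to 0.123 and stayed under 0.05 in 8 of 18.

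The carnitine palmitoyltransferase 1 genes cpt1aa, cpt1ab and cpt1b code for the malonyl-CoA-sensitive enzyme of the outer membrane that controls entry, and CPT1B is the muscle form in mammals. cpt1ab was measured at 39.1, 27.1, 27.6, 23.4 and 22.1 CPM in the mutant replicates, listed in the same order, and at 22.9, 22.1, 20.4, 20.9 and 27.1 CPM in the wild-type replicates. Replicate 1 of aldh2.1-/- lay well above every other library, while mutant replicate 6 was at the level of the wild types. Its log2 fold change of 0.30 ± 0.14 (SE) came with an unadjusted edgeR p of 0.0578 and an exact permutation p of 0.0873, and without mutant replicate 1 it was 0.14. cpt1b had 15.2, 12.8, 10.8, 7.08 and 10.4 CPM in mutants and 10.5, 8.83, 11.2, 8.92 and 7.49 CPM in wild types, and its log2 fold change was 0.27 ± 0.18 (SE), or 0.13 without mutant replicate 1. Mutant replicates 1 and 5 were its highest and its lowest library, so that the mutant range enclosed the wild-type range. cpt1aa stood at 19.4, 18.7, 20.3, 16.6 and 19.4 CPM in mutants and 15.4, 18.6, 17.9, 19.1 and 18.1 CPM in wild types, with overlapping genotypes and a log2 fold change of 0.083 ± 0.086 (SE). In TPM, cpt1ab held 43.2% ± 4.07 of the summed cpt1 level in mutants and 40.6% ± 3.98 in wild types (SD, n = 5 each), cpt1aa 35.3% and 38.2%, and cpt1b 21.5% and 21.1%. No paralog's share separated the genotypes.

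The carrier slc25a20 exchanges acylcarnitine for carnitine across the inner membrane, and it was the most abundant shuttle gene at 36.6 TPM. Its levels were 48.8, 45.8, 39.7, 35.3 and 38.0 CPM in mutants and 52.1, 40.8, 40.4, 37.8 and 38.4 CPM in wild types, where replicate 1 stood apart from the others. The log2 fold change was -0.013 ± 0.11 (SE) and turned positive when scaled by library size alone. The acyl-CoA synthetases acsl1a and acsl1b, which trap long-chain fatty acids as CoA esters, differed by less than their standard errors. acsl1a was found at 49.6, 44.8, 45.3, 46.8 and 55.1 CPM in mutants and 43.5, 52.8, 45.8, 51.0 and 52.7 CPM in wild types, giving -0.025 ± 0.08 (SE) on the log2 scale, a sign that turned with library size alone. acsl1b had 45.3, 37.9, 34.98, 27.8 and 29.3 CPM in mutants and 38.7, 38.7, 37.7, 28.3 and 30.9 CPM in wild types, with mutant replicates 1 and 5 as its highest and lowest library, and a log2 fold change of 0.0084 ± 0.14 (SE). acsl1a made up 70.9% ± 4.53 of the summed acsl1 TPM in mutants and 71.7% ± 4.52 in wild types (SD, n = 5 each).

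Acyl-CoA dehydrogenases perform the first oxidation, each for its own chain length. acadvl, the very-long-chain enzyme of the inner membrane, showed 102, 104, 160.1, 122 and 97.3 CPM in aldh2.1-/- and 98.6, 102, 79.8, 72.8 and 105 CPM in aldh2.1+/+ replicates. Mutant replicates 3 and 5 lay above all wild types, whereas mutant replicates 1, 2 and 6 fell within the wild-type range. With means of 117 ± 25.9 and 91.7 ± 14.5 CPM (SD, n = 5 each), the log2 fold change was 0.35 ± 0.15 (SE), and it was 0.21 without mutant replicate 3. The unadjusted p was 0.0334 and the adjusted p 0.921 in edgeR, and the exact permutation test gave p = 0.111. The unadjusted p ran from 0.0195 to 0.0964 over the alternatives and was under 0.05 in 11 of 18.

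acadm, the medium-chain enzyme, was present at 63.8, 62.8, 61.1, 61.5 and 72.1 CPM in mutants and 67.6, 68.0, 64.5, 56.9 and 59.5 CPM in wild types. The genotypes overlapped, and mutant replicate 6 had the highest value of all. Its log2 fold change was 0.021 ± 0.072 (SE). At the low end of this role acad11 had 8.26, 6.43, 6.71, 5.88 and 6.69 CPM in mutants and 8.03, 6.78, 6.63, 4.59 and 4.99 CPM in wild types, with a log2 fold change of 0.13 ± 0.16 (SE). acads and acadl, the short- and long-chain enzymes, and acad8, which oxidizes the valine product isobutyryl-CoA, had log2 fold changes of 0.048, 0.073 and -0.055.

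Both acadsb genes code for short/branched-chain acyl-CoA dehydrogenase, which acts in isoleucine breakdown. The gene ENSDARG00000098174 varied widely within genotypes, with 22.4, 19.7, 17.8, 20.4 and 24.0 CPM in mutants and 27.0, 13.6, 24.2, 20.1 and 20.9 CPM in wild types, and its log2 fold change of -0.021 ± 0.15 (SE) turned positive under scaling by library size alone. The gene ENSDARG00000076780 had a log2 fold change of 0.13 ± 0.082 (SE). For this gene the CPM and TPM did not move together, since mutant replicates 1, 5 and 6 had 41.4, 42.4 and 42.7 CPM but 30.0, 14.4 and 15.04 TPM. The ratio of TPM to CPM was also taken relative to the median ratio of all members in each library. This relative ratio varied 1.74-fold between libraries for this acadsb gene and for decr2. It varied 1.56-fold for eci2, 1.16-fold for etfb and slc25a20 and 1.08-fold for cpt2. Because the reference median was taken over the members themselves, a low value does not mean that a gene kept a steady ratio. The reason was not tested.

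The later steps of the mitochondrial spiral are run by trifunctional protein, hadh, echs1 and the thiolases. acaa2, the 3-ketoacyl-CoA thiolase, had the largest fold change of all members. It was measured at 45.4, 34.7, 46.8, 44.4 and 53.2 CPM in mutants and 40.2, 20.9, 48.7, 22.9 and 34.1 CPM in wild types. Wild-type replicates 2 and 5 were far below the other libraries, while wild-type replicate 3 exceeded all mutants except replicate 6. The SD of its log2 CPM was 0.52 in wild types, the widest spread of any member, and 0.22 in mutants. The log2 fold change was 0.43 ± 0.21 (SE) with an unadjusted edgeR p of 0.0683, and the exact permutation test gave p = 0.103. Over the alternatives the unadjusted edgeR, limma or DESeq2 p ran from 0.00772 to 0.1485 and was under 0.05 in 8 of 18.

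Trifunctional protein is built from alpha subunits, here hadhaa and hadhab, and the beta subunit hadhb, and it handles long chains at the inner membrane. In the RefSeq annotation of assembly GRCz12tu no protein-coding gene lies between hadhaa and hadhb. hadhab had 68.0, 63.5, 55.5, 47.5 and 46.5 CPM in mutants and 49.0, 51.0, 53.0, 49.8 and 48.3 CPM in wild types. Mutant replicates 1, 2 and 3 exceeded every wild type and replicates 5 and 6 fell below every one, so that the SD of log2 CPM was 0.24 in mutants and 0.053 in wild types. hadhaa had 26.9, 32.6, 20.03, 19.4 and 25.9 CPM in mutants and 22.6, 15.9, 23.7, 22.2 and 22.4 CPM in wild types. hadhb reached 124, 126, 110.4, 97.1 and 111 CPM in mutants and 114, 94.8, 109, 109.9 and 101 CPM in wild types. The log2 fold changes of hadhab, hadhaa and hadhb were 0.16 ± 0.10, 0.23 ± 0.15 and 0.10 ± 0.081 (SE), and the genotypes overlapped for each subunit. Without mutant replicate 1 the value of hadhab was 0.085, and that of hadhaa was 0.11 without mutant replicate 2 and 0.14 without wild-type replicate 2. In TPM the alpha subunits together reached 1.83 ± 0.13 times the beta subunit in mutants and 1.74 ± 0.088 times in wild types (SD, n = 5 each), and hadhab made up 68.5% and 69.5% of the alpha subunits.

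hadh, the short-chain 3-hydroxyacyl-CoA dehydrogenase, was the highest gene of this role per length at 40.9 TPM. Its levels were 45.6, 47.2, 44.7, 28.1 and 35.9 CPM in mutants and 42.2, 33.5, 41.9, 32.0 and 35.3 CPM in wild types, and the mutant range enclosed the wild-type range. Its log2 fold change was 0.13 ± 0.14 (SE). It was 0.078 without mutant replicate 1, 0.062 without mutant replicate 2, 0.23 without mutant replicate 5 and 0.078 without wild-type replicate 5, and 0.22 with limma on log2(TPM + 1). acat2, a cytosolic thiolase that makes acetoacetyl-CoA for sterol synthesis, lay at 12.8, 15.8, 14.7, 13.0 and 14.3 CPM in mutants and 14.0, 14.7, 13.9, 14.1 and 13.8 CPM in wild types. The wild-type libraries of acat2 spanned less than 1 CPM, and the fitted difference was 0.0012 ± 0.083 (SE). The hydratase echs1 and the mitochondrial thiolase acat1 had log2 fold changes of 0.03 and 0.03.

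**Figure D3:**
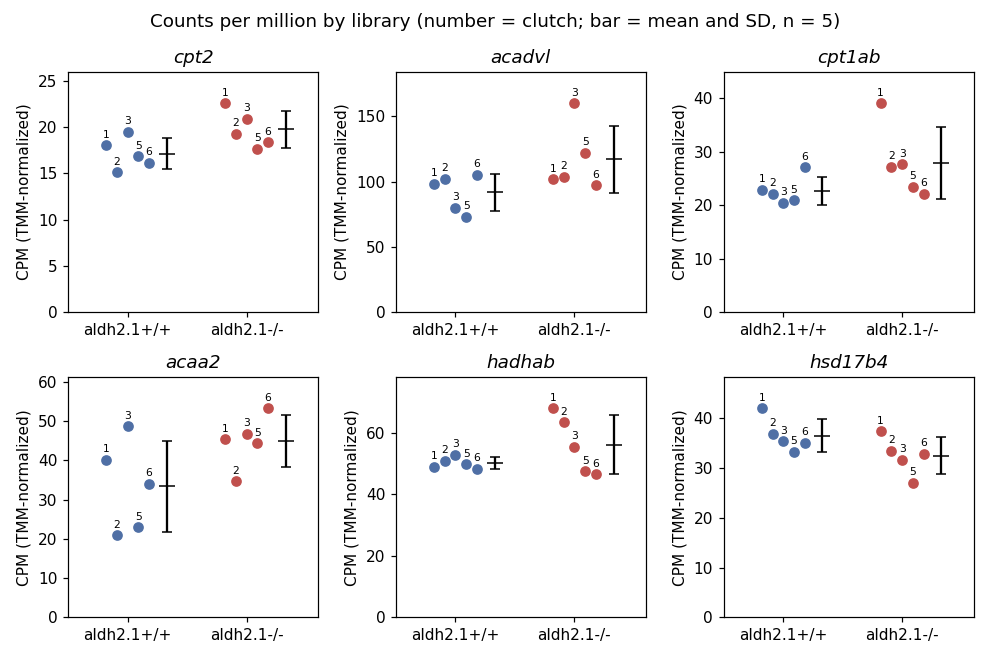
CPM in every library for cpt2, acadvl, cpt1ab, acaa2, hadhab and hsd17b4, with the clutch number at each point and the mean and SD of each genotype (n = 5). For all 6 genes the genotypes overlap, and mutant replicate 3 of acadvl at 160.1 CPM and wild-type replicates 2 and 5 of acaa2 at 20.9 and 22.9 CPM lie far from the rest.

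Auxiliary enzymes remove the double bonds that the main spiral cannot pass. eci2, an enoyl-CoA isomerase found in mitochondria and peroxisomes, was the highest of them and had 39.6, 38.8, 35.5, 31.4 and 38.5 CPM in mutants and 39.4, 35.3, 35.04, 30.6 and 33.7 CPM in wild types. ech1, a dienoyl-CoA isomerase, was the lowest, with 11.0, 11.7, 10.4, 8.29 and 9.73 CPM in mutants and 11.8, 8.78, 12.6, 9.82 and 9.69 CPM in wild types. The genotypes overlapped for both, and the log2 fold changes were 0.079 ± 0.085 and -0.041 ± 0.12 (SE). eci1, the mitochondrial isomerase, and decr1, the dienoyl-CoA reductase, had values of 0.093 and 0.075.

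Electrons of the first step pass through electron transfer flavoprotein (etfa, etfb) to its ubiquinone oxidoreductase (etfdh). etfb was steady at 83.9, 92.0, 83.4, 86.7 and 94.2 CPM in mutants and 93.3, 85.0, 89.5, 88.0 and 82.9 CPM in wild types, and its log2 fold change was 0.0049 ± 0.061 (SE). For etfdh the values were 29.2, 27.3, 24.4, 17.8 and 19.1 CPM in mutants and 21.5, 18.9, 21.3, 19.8 and 22.9 CPM in wild types, where mutant replicates 1 to 3 lay above and replicate 5 below all wild types. Its log2 fold change was 0.17 ± 0.13 (SE), or 0.084 without mutant replicate 1 and 0.12 without mutant replicate 2. etfa had a log2 fold change of 0.11 ± 0.065 (SE), and the exact permutation test gave p = 0.0873. The ratio of etfb to etfa in TPM was 1.61 ± 0.13 in mutants and 1.72 ± 0.037 in wild types (SD, n = 5 each), and the ranges overlapped.

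The peroxisomal genes had fitted values on both sides of 0. hsd17b4, the D-bifunctional protein, had the lowest fold change of the set. It reached 37.4, 33.5, 31.7, 27.0 and 32.9 CPM in mutants and 42.0, 36.8, 35.3, 33.2 and 35.1 CPM in wild types. Mutant replicates 3, 5 and 6 were below every wild type, and wild-type replicate 1 was above every mutant. The means were 32.5 ± 3.74 and 36.5 ± 3.31 CPM (SD, n = 5 each), and the log2 fold change of -0.17 ± 0.091 (SE) had an unadjusted edgeR p of 0.0904. The exact permutation test gave p = 0.119, and the log2 fold change was -0.11 without mutant replicate 5. ehhadh, the L-bifunctional enzyme, stood at 6.11, 4.48, 4.94, 3.46 and 3.71 CPM in mutants and 7.11, 4.78, 4.64, 3.44 and 4.41 CPM in wild types, and replicate 1 was the highest library in both genotypes. Its log2 fold change was -0.10 ± 0.21 (SE). The oxidase acox3, the thiolase acaa1 and the reductase decr2 had log2 fold changes of 0.051, 0.21 and 0.15.

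The spread between clutches of one genotype exceeded the difference between the genotype means. When each gene was centred on its own mean log2 CPM and averaged over the 35 members, the mutant replicates 1, 2, 3, 5 and 6 lay at 0.19, 0.12, 0.037, -0.14 and 0.019. The wild-type replicates lay at 0.094, -0.10, 0.0078, -0.14 and -0.085. The genotype means were 0.045 ± 0.12 and -0.045 ± 0.095 (SD, n = 5 each), so both genotypes had a clutch near the bottom of the range. Mutant replicate 1 was the highest library for 12 members and mutant replicate 2 for 8, whereas mutant replicate 5 was the lowest library for 10 and wild-type replicate 5 for 7. The summed TPM of the members was 673 ± 95.6 in mutants and 607 ± 40.0 in wild types (SD, n = 5 each), with 536.5 in mutant replicate 5 and 789.4 in mutant replicate 1. Unlike the CPM, these sums carry no TMM correction, so they also hold differences of scale between libraries. The SD of log2 CPM was larger in mutants for 21 of the 35 members, or 60%, and for 71.9% of all genes.

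Leaving out mutant replicate 5 changed the count of members with an unadjusted p under 0.05 from 2 to 7, namely cpt1ab, cpt1b, cpt2, hadh, hadhab, etfa and etfdh, all higher in mutants. Without this library these were 20% of the members, beside 12.2% of all genes, and no member passed the adjusted threshold. Without mutant replicate 6 the count was 4, or 11.4%, beside 6.82% of all genes. It was 0 without mutant replicate 3 or without wild-type replicate 5, beside 4.17% and 4.32% of all genes. The number of members with a fitted value above 0 ranged from 24 to 31 over these fits.

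**Figure D4:**
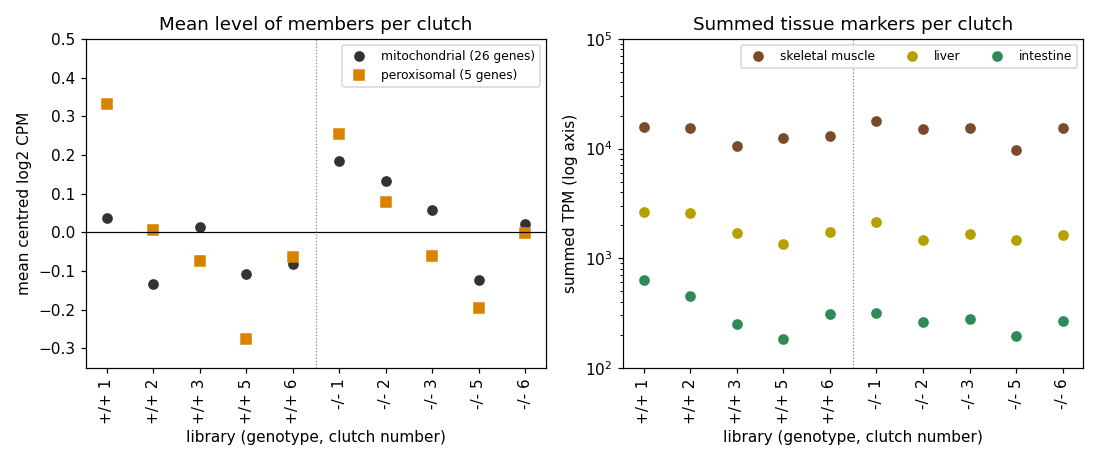
Left, mean centred log2 CPM of the 26 mitochondrial and 5 peroxisomal members in each library. Right, summed TPM (log axis, without TMM correction) of skeletal muscle, liver and intestine markers in the same libraries. Mutant replicate 5 is low and mutant replicate 1 high for the members and for the muscle markers. Wild-type replicate 3 is low for the muscle markers at 10440 TPM, while its mitochondrial members are at 0.014. Wild-type replicate 5 has 12400 TPM of muscle markers, with its mitochondrial members at -0.11. Wild-type replicate 1 is high for the peroxisomal members and for the liver and intestine markers. Wild-type replicate 2 is high for the liver and intestine markers, while its peroxisomal members are at 0.005 and its mitochondrial members at -0.13.

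Markers of the tissues in a whole larva also differed between these clutches. The summed TPM of 10 skeletal muscle genes was lowest in mutant replicate 5 at 9790 and highest in mutant replicate 1 at 17810, and the wild types lay between 10440 and 15850. The 9 liver genes summed to 1459 to 2139 TPM in mutants and 1348 to 2649 TPM in wild types. The 7 intestine genes summed to 196 to 313 TPM in mutants and 183 to 634 TPM in wild types, with wild-type replicate 1 at the top for both tissues. This same library had the highest mean centred level of the peroxisomal members, 0.33, while its mitochondrial members were at 0.038. Wild-type replicate 2 had 2605 TPM of liver, 456 TPM of intestine and 15410 TPM of muscle markers. Its peroxisomal and mitochondrial members were at 0.005 and -0.13. Mutant replicate 1 had its peroxisomal members at 0.25, with 2139 TPM of liver and 313 TPM of intestine markers. Single genes weighed heavily in these sums. FABP2 alone ran from 114 to 412 TPM among the intestine genes, and apoa2 from 578 to 1230 TPM among the liver genes. The intestine gene cdx1b, at 4.74 to 10.0 TPM, had a log2 fold change of 0.22, and that of FABP2 was -0.62. Muscle markers had fitted values above 0 for 9 of 10 genes, liver markers for 1 of 9 and intestine markers for 1 of 7. The counts were 1 of 8 for heart, 2 of 7 for brain and 1 of 4 for yolk and lipoprotein markers. Over all genes 52.1% had fitted values above 0. Summed heart markers (8 genes) ranged from 61.5 to 95.7 TPM and brain markers (7 genes) from 974 to 1315 TPM over all libraries. Yolk and lipoprotein markers (4 genes) ranged from 93.2 to 148 TPM, and no marker was at 0 in any library. These sums carry no TMM correction, and TPM and CPM were not scaled alike between libraries. For example, etfb had 83.9 CPM and 82.8 TPM in mutant replicate 1, but 86.7 CPM and 69.3 TPM in mutant replicate 5. How much of the range of the summed TPM comes from scale was not tested. The part of tissue composition in the levels of the beta-oxidation genes was not tested.

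Further genes around beta-oxidation were taken from 7 lists covering activation and transport, other acyl-CoA dehydrogenases, branched and odd chains, ketone bodies, further peroxisomal genes, PPAR targets and regulators. Of 90 tested genes 52 had fitted values above 0 and 38 below, the median log2 fold change was 0.024, and none passed the adjusted threshold. An unadjusted edgeR p under 0.05 was found for 9 genes, 4 with higher and 5 with lower means in mutants, which was 10% of these genes beside 5.04% of all genes. ACAD9, an acyl-CoA dehydrogenase also needed to assemble complex I, was the only one of them whose genotypes did not overlap, with 6.82 to 9.20 CPM in mutants and 4.15 to 5.08 CPM in wild types. Its log2 fold change was 0.80 ± 0.12 (SE) with an adjusted edgeR p of 0.0584, which ran from 7.80e-06 to 0.590 over the alternatives. The other 3 with higher means were CRAT (ENSDARG00000016545), carnitine acetyltransferase, at 0.67, ucp3, a mitochondrial carrier of muscle in mammals, at 0.54, and SLC27A1 (ENSDARG00000006240), a fatty acid transporter, at 0.20 on the log2 scale. The 5 with lower means were FABP1 (ENSDARG00000059227) at -0.83 and fabp10a at -0.50, both fatty acid binding proteins of intestine or liver, the uncoupling protein gene UCP1 at -0.66, pparaa, a receptor that activates fatty acid oxidation genes, at -0.35, and GCDH (ENSDARG00000037057), glutaryl-CoA dehydrogenase, at -0.23. Apart from ACAD9, these 8 genes had an adjusted edgeR p of 0.921. Their exact permutation p ran from 0.0159 for this GCDH gene to 0.135 for FABP1. Another gene annotated as GCDH (ENSDARG00000098831) went the other way, at 0.21 (unadjusted edgeR p 0.0523, exact permutation p 0.0397). Another SLC27A1 gene (ENSDARG00000104949) was at -0.087 and another CRAT gene (ENSDARG00000040248) at 0.094. FABP1 was at 290 and 221 CPM in wild-type replicates 1 and 2. The other wild types lay between 83.8 and 117 CPM and the mutants between 75.7 and 112 CPM. By list, these genes were 4 of 22 tested for activation and transport, 2 of 4 other acyl-CoA dehydrogenases, 2 of 11 PPAR targets and 1 of 16 regulators, lists too small to read against the 5.04% of all genes. The branched and odd chain, ketone body and further peroxisomal lists held no gene past the unadjusted threshold among 13, 7 and 17 tested. In the peroxisomal list the genotypes of PEX7 nearly met but did not overlap, as for 0.725% of all genes. It had 2.61 to 3.165 CPM in mutants and 3.167 to 3.57 CPM in wild types. Its log2 fold change was -0.25 ± 0.13 (SE), with an unadjusted edgeR p of 0.0838 and an exact permutation p of 0.00794.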

How the data were processed

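RNA of 5 aldh2.1-/- and 5 aldh2.1+/+ clutches was sequenced by the authors on a BGISEQ-500. Per the submitters' processing notes, the tools were Trim Galore 0.6.4 and kallisto 0.4.6 with build GRCz11, and the annotation release is not given in the sources used here. The authors deposited estimated counts per gene (57.1% to 58.6% of the values were whole numbers) and TPM values per gene, which kallisto corrects for length and depth. Ambiguous reads are shared out between similar genes, so genes with fractional counts carry that uncertainty. Counts were fractional in 10 libraries for acsl1a, acsl1b, cpt1aa and both acadsb genes, and in 9 for cpt1ab. They were also fractional in 10 libraries for cpt2 and acaa2 and in 9 for acadvl. They were fractional in 1 library for cpt1b and in 0 for hadhaa and hadhab.

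Estimated counts were rounded and tested with edgeR 4.0.16 (quasi-likelihood, TMM, filterByExpr, robust, genotype only, two-sided, Benjamini-Hochberg over 21532 genes at 0.05). The authors' sources state no gene-wise test for these data. The paper does report pathway enrichment scores from them and lists fatty acid degradation among the pathways lowered in mutants. That gene set was not examined here, and which of the members belong to it was not checked. The members leave out the aldh genes. Of the 35 members, 28 had fitted values above 0, the other direction, and none passed the adjusted threshold. The standard error is the absolute value of edgeR's unshrunk coefficient on the log2 scale divided by the root of the F statistic. Single genes were also tested by exact permutation over 252 assignments on log2 CPM (prior count 2), where the smallest possible p is 0.00794. Alternatives were library size alone, DESeq2 1.42.0, 2 other count filters (none, or at least 10 counts in every library), limma on log2(TPM + 1) or log2(TPM + 0.1) for genes with a mean TPM of at least 0.5, no robust option, a replicate block and 10 fits without 1 library each. The analysis was tested on simulated data.

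No 2 libraries were alike within sampling error (chi-square divided by its degrees of freedom ran from 7.44 to 77.9 within genotypes), so each counted as 1 replicate. p-values measure the spread between clutches of 1 line. Values in all libraries are given for members with an unadjusted p under 0.05, the highest and lowest by TPM of each role, the 3 with the largest SD within a genotype and the cpt1, acsl1 and hadha/hadhb genes. Of the further lists, genes with an unadjusted p under 0.05 are named. Members and lists were chosen with earlier results of these data known.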

Additional observations from a re-analysis of the deposited data

Results flagged for a closer look

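In 3 of 70 groups (35 members in 2 genotypes), 1 library lay far from the other 4 by Dixon's criterion for 5 values (0.71), which chance gives in about 1 of 20 groups. For slc25a20 it was aldh2.1+/+ replicate 1 at 52.08 CPM, with the others between 37.78 and 40.79 CPM. For acadm it was aldh2.1-/- replicate 6 at 72.09 CPM, with the others between 61.07 and 63.78 CPM. For hadhaa it was aldh2.1+/+ replicate 2 at 15.86 CPM, with the others between 22.23 and 23.72 CPM.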

How the results depend on the processing

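The count of members past an adjusted p of 0.05 was 0 under all 18 alternatives, and the medians of all and of mitochondrial members stayed above 0. The peroxisomal median stayed above 0 in all but 2 of them, at -0.014 without aldh2.1+/+ replicate 3 and -0.0059 without aldh2.1-/- replicate 1, and was 0.082 with library size alone and 0.031 with limma on log2(TPM + 1). Over all genes, 22 passed with DESeq2, 4 without the filter on low counts, 1 with the replicate block and between 2 and 48 when 1 library was left out, the 48 being without aldh2.1-/- replicate 5. With limma on log2(TPM + 1) or log2(TPM + 0.1) 1 member, acaa2, passed an unadjusted p of 0.05, beside 4.03% and 4.07% of all genes. Without the filter it was 1 member, acadvl, beside 4.68% of all genes. When 1 library was left out, 0 to 7 members, or 0% to 20%, passed, beside 3.64% to 12.2% of all genes. Replicate numbers are shared between genotypes, but the correlations of same-numbered libraries lay between -0.13 and 0.11 and 1 of 5 correlated best with its own number, so the numbers were not treated as pairs. With the replicate block 3 members (cpt2, acaa2, hsd17b4), or 8.57%, passed the unadjusted p, beside 4.29% of all genes. Scaling by library size alone raised the share of all genes above 0 from 52.1% to 59.8%, and limma on log2(TPM + 1) to 64.1%. Members with log2 fold changes near 0 changed sign. With library size alone slc25a20 became 0.023, acadsb ENSDARG00000098174 0.012 and acsl1a 0.00028. With limma on log2(TPM + 0.1) slc25a20 became 0.037 and acadsb ENSDARG00000098174 0.055, and on log2(TPM + 1) they became 0.036 and 0.047 and ech1 0.00015. With the replicate block acat2 became -0.0024, acadsb ENSDARG00000098174 0.0043 and acsl1b -0.0028, and without the filter acat2 became -0.0027. Leaving out 1 library gave -0.078 to 0.076 for slc25a20, -0.025 to 0.048 for acadm, -0.044 to 0.035 for acat2, -0.10 to 0.031 for ech1, -0.022 to 0.027 for etfb, -0.23 to 0.073 for ehhadh, -0.14 to 0.082 for acadsb ENSDARG00000098174, -0.079 to 0.0013 for acsl1a and -0.10 to 0.081 for acsl1b. The cause was not tested.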
